A study of Mus musculus with 6 samples.

Results

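Reticular stromal cells of the bone marrow make the secreted and surface proteins that hold blood stem cells and early lymphocytes in place, and 10 genes of this program were followed here: the signals Cxcl12, Kitl and Il7, the receptor Lepr and the adhesion molecule Vcam1, the transcription factors Foxc1, Ebf3 and Ebf1, and the mesenchymal surface proteins Nt5e and Eng. They were picked by symbol from the gene table of an RNA-seq experiment on cultured mesenchymal stem cells (MSCs). All 10 were among the 20071 Ensembl IDs of the table, and all 10 were among the 13733 genes that passed the expression filter. Both groups carried Pcif1 alleles with loxP sites around 3 exons (Pcif1fl/fl). The group labelled CKO also carried Prrx1-Cre, a recombinase driven by an enhancer active in limb mesenchyme, whereas the littermates labelled WT did not, so WT here means floxed without Cre. The mice were of C57BL/6J background and their sex is not given in the sources used here. The MSCs were taken from femurs at an age of 6 weeks and kept for 7 days in osteogenic medium, which held dexamethasone at 100 nM, β-glycerophosphate at 5 mM and ascorbic acid at 50 µg/mL. Each genotype had 3 libraries by its labels, although the deposited design text speaks of duplicates. No label says whether each library is its own mouse or culture, so p-values measure the spread between these libraries, which may be technical.

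In the marrow, CXCL12 binds CXCR4 on hematopoietic cells and keeps them near the stroma, and the product of Kitl, stem cell factor, acts through KIT. IL-7 is needed by developing B lymphocytes. Cells rich in CXCL12 and marked by the leptin receptor contain precursors of marrow adipocytes and of osteoblasts, and FOXC1, EBF3 and EBF1 are transcription factors known to maintain them. VCAM1 binds the integrin made of the Itga4 and Itgb1 products. CD73, the product of Nt5e, makes adenosine from AMP, endoglin, the product of Eng, is a co-receptor for ligands of the TGF-β family, and both serve as surface markers of cultured MSCs. PCIF1 adds the N6-methyl mark to an adenosine that is the first base of a capped transcript, so the start sites of these genes are shown first.

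RefSeq (GRCm38.p6) start windows were found for 8 of the 10 genes, with 10 start sites in all, and for Vcam1 and Il7 none was found. The windows of the genes with the largest differences and of Nt5e, the single gene with a positive log2 fold change (not past the test), are given here, each with 40 bases before the start and 20 bases from the start on, and the first transcribed base is in capitals.
Cxcl12 (chr6:117168495-117168554, plus strand): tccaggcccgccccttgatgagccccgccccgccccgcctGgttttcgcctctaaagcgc
Kitl (chr10:100015781-100015840, plus strand): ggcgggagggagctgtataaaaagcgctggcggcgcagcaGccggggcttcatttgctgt
Ebf3 (chr7:137314426-137314485, minus strand): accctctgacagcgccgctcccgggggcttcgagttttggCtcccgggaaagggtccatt
Lepr, upstream start (chr4:101717367-101717426, plus strand): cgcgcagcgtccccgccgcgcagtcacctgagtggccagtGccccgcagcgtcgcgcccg
Lepr, downstream start (chr4:101717866-101717925, plus strand): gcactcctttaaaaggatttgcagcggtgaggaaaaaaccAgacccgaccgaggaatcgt
Nt5e (chr9:88327569-88327628, plus strand): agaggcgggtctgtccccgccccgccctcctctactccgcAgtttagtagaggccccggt

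An adenosine stood first at 2 of the 10 start sites, the downstream start of Lepr and the start of Nt5e, against 34.4% of the 32851 RefSeq start sites. The annotated starts of Cxcl12, Kitl and Foxc1 began with G, as did the upstream start of Lepr, while those of Ebf3 and Eng and 1 of the 2 of Ebf1 began with C and the other of Ebf1 with T. The counts are per gene, so they do not show which start was used in these cells, and the methylation of these transcripts was not analysed here. Motifs were searched on both strands from 250 bases before to 50 bases after each start. The TATA box letters TATAAA were found for Kitl, 25 bases before the start, and in 13.6% of all start windows. The GC box CCGCCC, the core of binding sites for Sp-family factors, occurred 5 times at Cxcl12, 4 times at Nt5e, 3 times each at Kitl and Ebf3 and 1 time each at Foxc1 and the downstream start of Lepr, and 35.7% of all windows held it. The letters TCCCNNGGG, a form of the EBF site, were found at Ebf3, in 6.56% of all windows, and at none of the other 7 genes. CCAAT was present at Foxc1 and at the upstream start of Lepr and in 37.4% of all windows. The forkhead letters TGTTTAC were in none of the 10 windows and in 3.65% of all.

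The libraries held between 20258209 and 28227696 counts, and levels are given as CPM, the counts scaled to a common library size, with edgeR's TMM factors. Pcif1 was between 39.3 and 42.8 CPM in WT and between 37.8 and 39.7 CPM in CKO, and counts summed over the gene cannot show the deletion of exons. WT replicate 3 stood apart from the other 5 libraries, with 3.63% of its counts on mitochondrial genes against 1.40% to 1.57%. Xist, the transcript of the inactive X chromosome, was between 232 and 443 CPM in WT and between 0.722 and 1.79 CPM in CKO. The Y-linked gene Ddx3y was between 48.4 and 62.2 CPM in WT and between 99.1 and 104 CPM in CKO. The sex of the mice and the genotype therefore cannot be told apart in any comparison here. Every WT library held both Xist and Y-linked RNA. All 10 niche genes lie on autosomes. The cultures also carried the RNA of macrophages: 18 macrophage markers summed to between 36410 and 39580 CPM in WT and between 37640 and 41080 CPM in CKO. Most of that came from Lyz2, a lysozyme gene, at 24321 ± 1353 CPM (SD, n = 3) in WT and 23900 ± 2156 CPM in CKO. Ptprc, which encodes the blood cell antigen CD45, was between 171 and 240 and between 223 and 245 CPM. MSC genes were present in all libraries. Prrx1 was between 211 and 283 CPM in WT and between 276 and 283 CPM in CKO, and Pdgfrb was between 233 and 263 and between 199 and 224 CPM. Pdgfra, between 88.5 and 96.9 and between 66.5 and 71.9 CPM, was lower at an adjusted p of 0.0244 (log2 fold change -0.42). That was lost with a replicate block and without WT replicate 2 or any 1 CKO library.

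Of the 10 niche genes, 6 were called lower in CKO (Cxcl12, Kitl, Lepr, Ebf3, Ebf1 and Eng), which means a log2 fold change of -1 or below and an adjusted p under 0.05, and 0 were called higher by edgeR, DESeq2 or limma-voom, with 1 gene (Nt5e) higher at an unadjusted p under 0.05 in edgeR. Among all genes tested, 2.50% were called lower and 1.03% higher. Without the fold threshold 8 of the 10 were lower, with Foxc1 and Vcam1 added, and 0 higher, where 4.51% of all genes were lower and 2.88% higher. In 9 of the 10, every CKO library was below every WT library, a pattern held by 15.7% of all genes, and in Nt5e every CKO library was above every WT library, as in 15.0% of all genes. The median log2 fold change was -1.22 over the 10 genes and 0.0017 over all genes tested. These are bulk cultures, in which fewer cells of a type and less RNA per cell cannot be told apart.

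**Figure D1:**
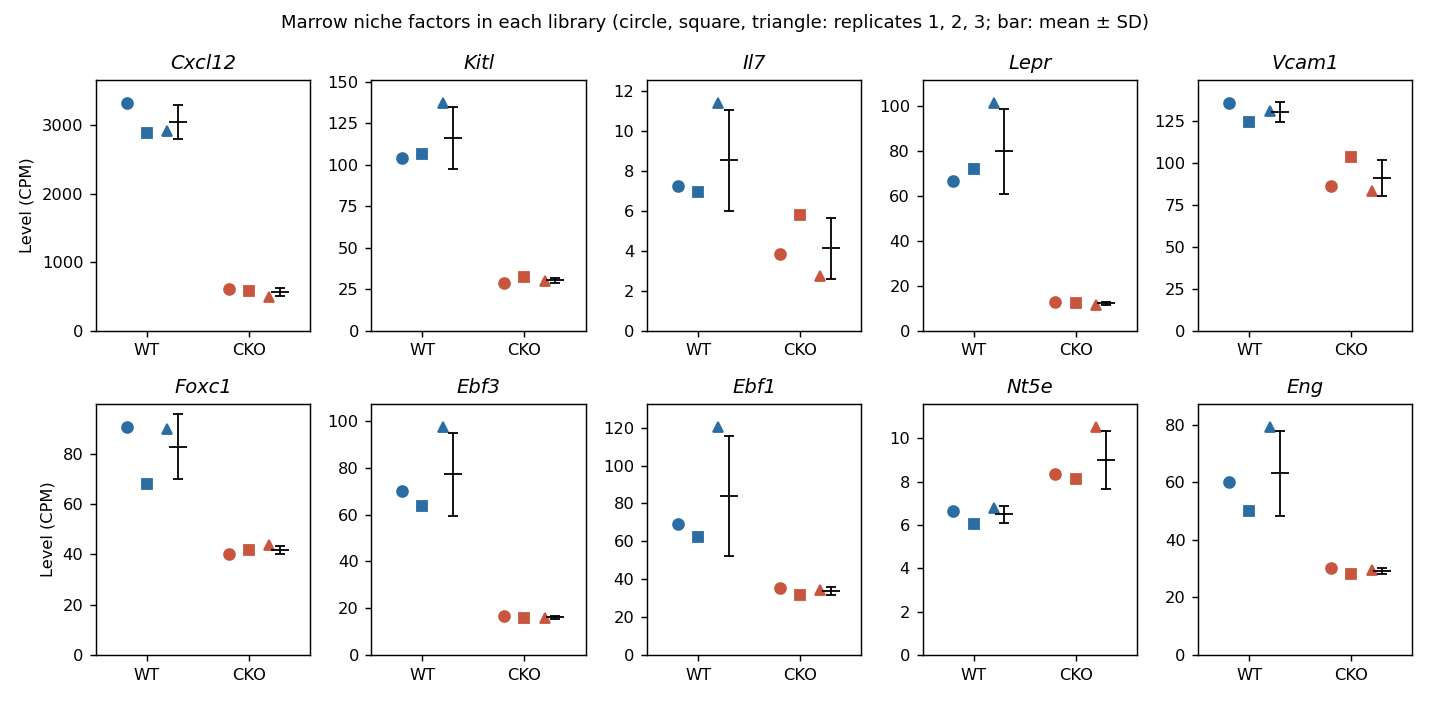
Level of each niche gene in CPM (vertical axes, each from 0) in the 3 WT libraries (blue) and the 3 CKO libraries (red), with circles, squares and triangles for replicates 1, 2 and 3 and bars for the mean ± SD. All red points are below all blue ones in 9 panels and above them in that of Nt5e, and the blue triangle of WT replicate 3 is the highest point for Kitl, Il7, Lepr, Ebf3, Ebf1 and Eng.

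Among the signals, Cxcl12 (ENSMUSG00000061353, chromosome 6, 117168535 to 117181367) was by far the most abundant. It was at 3335, 2895 and 2922 CPM in WT replicates 1 to 3 and at 607, 583 and 498 CPM in the CKO libraries. The WT libraries differed little among themselves and all lay above all CKO libraries, at a level 5.42-fold that of CKO (log2 fold change -2.44 ± 0.12 SE, adjusted p = 5.23e-05). This one transcript took 0.289% to 0.337% of all counts in WT, where it ranked 17th of all genes by CPM, and 0.0497% to 0.0598% in CKO, where it ranked 193rd. Cxcl12 is the single member at which WT replicate 3 did not exceed the mean of the other WT libraries (log2 ratio -0.092).

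Kitl (ENSMUSG00000019966, chromosome 10, 100015630 to 100100416) was at 104, 107 and 138 CPM in WT and 28.8, 32.1 and 29.8 CPM in CKO. The CKO libraries lay close together at 30.2 ± 1.69 CPM (SD, n = 3), far below the lowest WT library, with a log2 fold change of -1.94 ± 0.13 SE (adjusted p = 0.000141). Endothelial cells are another known source of stem cell factor. The 18 genes of the endothelial list summed to between 49.8 and 69.2 CPM in WT and between 56.9 and 62.0 CPM in CKO. In edgeR, 0 of the 16 endothelial markers tested passed the adjusted p, with 1 lower and 2 higher at an unadjusted p under 0.05 and 0 called by DESeq2 or limma-voom. They include Flt4 (log2 fold change 0.69, adjusted p = 0.0544), Cdh5 (-0.66, adjusted p = 0.0618), Vwf (0.57, adjusted p = 0.105) and Pecam1 (-0.48, adjusted p = 0.289), none of which passed in this fit. Cdh5 was lower in every CKO library, as Kitl was, and passed the adjusted p under some alternatives, given below with Eng. The part of endothelial RNA in the Kitl difference was not tested.

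Il7 (ENSMUSG00000040329, chromosome 3, 7569994 to 7613760) was low, with 165, 188 and 318 counts in WT and 85, 116 and 57 counts in CKO. In CPM these were 7.21, 6.91 and 11.4 against 3.83, 5.77 and 2.74. The groups did not overlap, but both were spread widely, and the log2 fold change of -1.05 ± 0.30 SE did not pass the test (adjusted p = 0.0761). With DESeq2 the same difference was called (adjusted p = 0.0127), as it was in edgeR without the expression filter (adjusted p = 0.0306), so the call for Il7 rests on the method. The antisense gene Gm16685 covers 1.85% of the Il7 exons, and whether the counting used strand is not given in the sources used here.

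The receptor Lepr (ENSMUSG00000057722, chromosome 4, 101717404 to 101815352) showed the largest difference of the 10. It was at 66.6, 71.9 and 102 CPM in WT and 12.9, 12.2 and 11.4 CPM in CKO. The 3 CKO values were nearly level at 12.2 ± 0.737 CPM (SD, n = 3), and the log2 fold change was -2.72 ± 0.18 SE (adjusted p = 0.000131). Leptin itself, the ligand, comes from adipocytes, and Lep was not among the genes of the table.

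Vcam1 (ENSMUSG00000027962, chromosome 3, 116109949 to 116129688) moved the least of the 8 niche genes that passed the adjusted p. It was at 136, 124 and 131 CPM in WT and 86.4, 103 and 83.3 CPM in CKO, so the groups were separate, with a log2 fold change of -0.52 ± 0.11 SE (adjusted p = 0.0216). It did not meet the fold threshold for a call. Macrophages and activated endothelium also carry VCAM1, and none of 18 macrophage and 16 endothelial markers tested was called. At the threshold that Vcam1 passed, the adjusted p alone, 1 macrophage marker was higher (Fcgr1) and 0 lower. Of the endothelial markers 0 passed it in this fit. The median log2 fold changes of these 2 lists were 0.163 and -0.0912. The share of Vcam1 RNA from each cell type was not tested, and 0.688% of its exonic bases overlap the gene Gm43109. Leaving out 1 library gave an adjusted p for Vcam1 as high as 0.132. With a replicate block it was also above 0.05.

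Of the transcription factors, Ebf3 (ENSMUSG00000010476, chromosome 7, 137193673 to 137314445) was the most reduced. WT libraries were at 70.2, 63.7 and 97.5 CPM, and CKO libraries at 16.7, 15.7 and 15.6 CPM. The CKO values differed by little more than 1 CPM, and the log2 fold change was -2.27 ± 0.17 SE (adjusted p = 0.000177). The gene Gm45278 overlaps 3.85% of the exonic bases of Ebf3.

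Ebf1 (ENSMUSG00000057098, chromosome 11, 44617317 to 45008091) was at 69.3, 62.6 and 120 CPM in WT and 35.6, 31.5 and 34.1 CPM in CKO. WT replicate 3 was far above the other WT libraries (log2 ratio 0.865 to their mean), while all 6 libraries kept the order of the genotypes. The log2 fold change was -1.32 ± 0.23 SE (adjusted p = 0.0113). Without WT replicate 3 it was -0.96 (adjusted p = 4.51e-07), which missed the fold threshold but not the adjusted p. The adjusted p was 0.0542, 0.0713 and 0.0567 without CKO replicates 1, 2 and 3. EBF1 is also a factor of B lymphocytes and adipocytes. The B cell markers Pax5, Spib, Igll1 and Ms4a1 had at most 3 counts in each library, and the B lymphoid list summed to between 38.4 and 61.4 CPM in WT, highest in replicate 3, and between 39.4 and 42.4 CPM in CKO. Most of that sum came from Blnk and Cd22, neither of which passed the test (log2 fold change -0.26, adjusted p = 0.536, and -0.11, adjusted p = 0.696). In the adipocyte list, given below, 6 of 12 genes tested were called lower, against 2.50% of all genes, and the other 6 did not pass. The share of Ebf1 RNA from each cell type was not tested.

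Foxc1 (ENSMUSG00000050295, chromosome 13, 31806633 to 31812476), a gene with a single exon, was at 90.8, 68.1 and 90.1 CPM in WT and 40.2, 41.7 and 43.6 CPM in CKO. The groups were apart, and the log2 fold change of -0.99 ± 0.13 SE (adjusted p = 0.00257) was just short of the threshold of -1. It was called under total-count scaling (-1.01) and without WT replicate 2 (-1.11) or CKO replicate 3 (-1.01).

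None of the paralogs passed the test. Foxc2 had a log2 fold change of -0.21 (adjusted p = 0.480), Ebf2 one of -0.67 (adjusted p = 0.307) and Ebf4 one of 0.52 (adjusted p = 0.390). Within a library, the ratio of Foxc1 to Ebf3 counts was 1.29, 1.07 and 0.924 in WT and 2.40, 2.66 and 2.80 in CKO, and the ratio of Ebf1 to Ebf3 was 0.988, 0.982 and 1.24 against 2.12, 2.01 and 2.18. Neither pair of groups overlapped, and the exact two-sided permutation p was 0.1 for each, the smallest that 3 libraries against 3 allow (0.1 after Benjamini-Hochberg adjustment over 6 ratios).

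Of the 2 MSC surface markers, Eng was called lower and Nt5e did not pass the test. Eng (ENSMUSG00000026814, chromosome 2, 32646595 to 32682669) was at 60.0, 49.9 and 79.2 CPM in WT and 30.0, 28 and 29.5 CPM in CKO. Of its exonic bases 1.51% are shared with Fpgs. It was lower in every CKO library, with a log2 fold change of -1.11 ± 0.16 SE (adjusted p = 0.00507). Without WT replicate 3 the change was -0.91 (adjusted p = 2.13e-06) and no longer met the fold threshold. Endothelial cells carry high levels of endoglin. The endothelial gene Cdh5 was at 12.4, 10.4 and 16.1 CPM in WT and 8.24, 8.41 and 8.08 CPM in CKO, and Pecam1 was between 4.96 and 9.07 CPM in WT and between 4.47 and 5.58 CPM in CKO. Cdh5 was lower in all CKO libraries without passing the test (log2 fold change -0.66, adjusted p = 0.0618). Its adjusted p was 0.0214 with DESeq2, 0.0433 with no expression filter, 0.0479 with total-count scaling, 0.0485 without WT replicate 2 and 0.0201 without WT replicate 3. Over all alternatives the adjusted p of Cdh5 reached 0.2105, and the part of endothelial RNA in the Eng difference was not tested.

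Nt5e (ENSMUSG00000032420, chromosome 9, 88327197 to 88372092) was at 6.64, 6.06 and 6.78 CPM in WT and 8.37, 8.11 and 10.5 CPM in CKO. All CKO libraries were above all WT libraries, but the log2 fold change of 0.47 ± 0.16 SE did not pass the test (adjusted p = 0.118). The count ratio of Nt5e to Eng was 0.111, 0.121 and 0.0856 in WT and 0.279, 0.290 and 0.357 in CKO, 2.93-fold higher on average (exact two-sided permutation p = 0.1, the smallest possible). Cultured MSCs are often defined by both proteins together, and the ratio of their transcripts did not overlap between the genotypes.

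**Figure D2:**
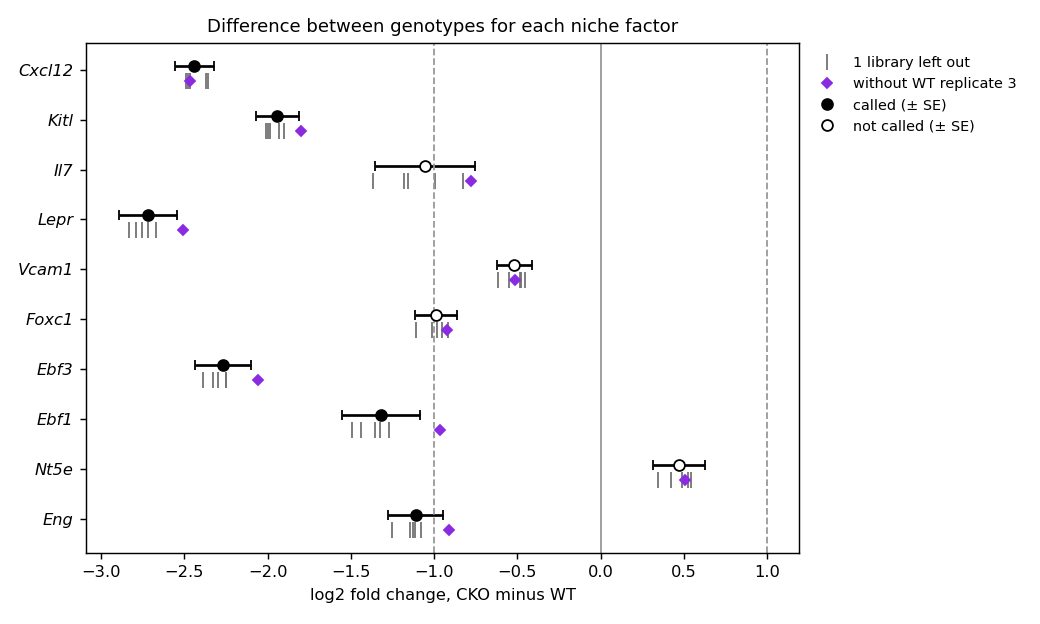
log2 fold change of CKO minus WT for the 10 genes (horizontal axis), with bars for the standard error, filled circles for called genes and open circles for the others; dashed lines mark -1 and 1. Grey ticks give the value with 1 library left out and purple diamonds the value without WT replicate 3, which for Ebf1 (-0.96) and Eng (-0.91) lies on the near side of the dashed line.

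WT replicate 3 gave the highest value of all 6 libraries for 6 of the 10 genes (Kitl, Il7, Lepr, Ebf3, Ebf1 and Eng), as it did for 32.1% of all genes tested. The median log2 ratio of WT replicate 3 to the mean of the other WT libraries was 0.452 over the 10 genes and -0.0024 over all genes, with quartiles of -0.302 and 0.277. The library with the largest mitochondrial share thus held the highest WT level of most of the niche genes, and the part of RNA quality in their values was not tested. Leaving it out, 4 of the 10 were called lower (Cxcl12, Kitl, Lepr and Ebf3), and each of these had a log2 fold change of -1.80 or below under every alternative tried. Without WT replicate 3, Ebf1 and Eng passed the adjusted p but not the fold threshold.

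Levels can be set against each other only per length, here as RPKM, which is CPM divided by the kilobases of merged exons. In WT, Cxcl12 was at 373 ± 30.2 RPKM (SD, n = 3), followed by Kitl at 19.7 ± 3.13, Eng at 15.6 ± 3.68, Vcam1 at 14.7 ± 0.653, Foxc1 at 14.2 ± 2.21, Lepr at 11.4 ± 2.69, Ebf1 at 8.62 ± 3.25 and Ebf3 at 8.36 ± 1.94 RPKM. Each neighbouring pair from Kitl to Ebf3 in that order overlapped between libraries, although every library of Kitl was above every library of Vcam1, Foxc1, Lepr, Ebf1 and Ebf3, and every library of Vcam1 above every library of Ebf1 and Ebf3. Il7 at 1.5 ± 0.444 RPKM and Nt5e at 0.755 ± 0.0439 RPKM were last, each separate from the gene before it.

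In CKO the order was different. Cxcl12 stayed first at 68.8 ± 7.00 RPKM, and Vcam1 came next at 10.3 ± 1.21 RPKM, above Eng at 7.21 ± 0.265 and Foxc1 at 7.16 ± 0.287 RPKM, which overlapped. Kitl was at 5.11 ± 0.287 RPKM and Ebf1 at 3.45 ± 0.213 RPKM, each separate from its neighbours. Ebf3 at 1.73 ± 0.0697 RPKM and Lepr at 1.72 ± 0.105 RPKM overlapped, as did Nt5e at 1.05 ± 0.155 and Il7 at 0.726 ± 0.271 RPKM. Lepr thus went from percentile 70.9 of all genes tested by RPKM in WT to percentile 27.7 in CKO, Ebf3 from 62.7 to 27.8 and Kitl from 82.9 to 50.2, while Cxcl12 went from 99.5 to 95.9. The lengths are those of the GENCODE M21 exons, and the annotation behind the counts is not given in the sources used here.

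**Figure D3:**
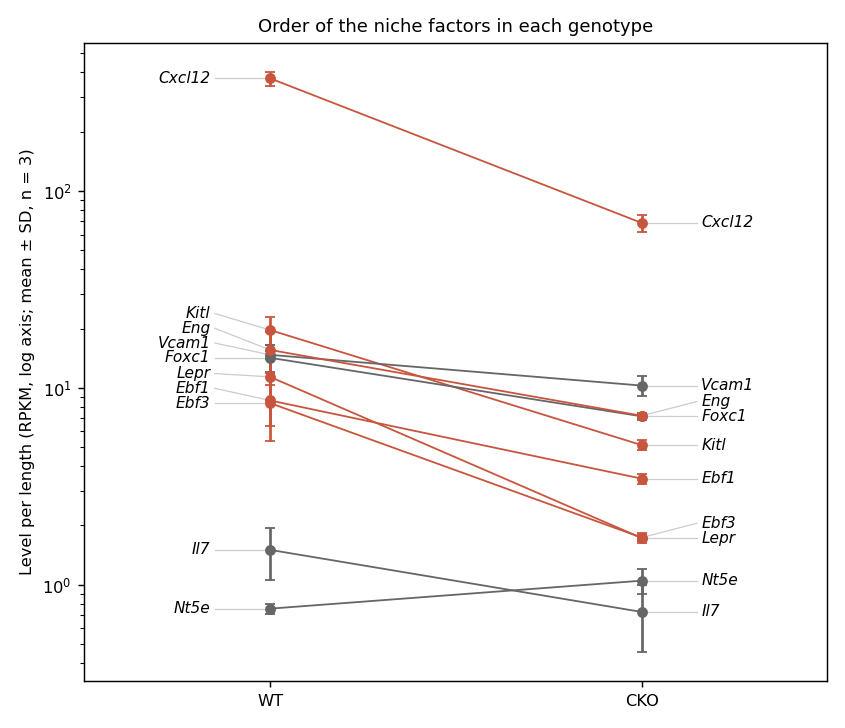
Level per length of each gene in RPKM (log axis, mean ± SD, n = 3) in WT and CKO, joined by lines that are red for genes called lower and grey for the others. The cluster of 7 genes between 8.36 and 19.7 RPKM in WT is spread from 1.72 to 10.3 RPKM in CKO, with Lepr and Ebf3 at its lower end and Vcam1 at its upper end.

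The ratios between the signals within a library are given as values, since with 3 libraries against 3 no ratio can reach 0.05 in the exact permutation test used here. Kitl counts were 0.0313, 0.0369 and 0.0471 of Cxcl12 counts in WT and 0.0475, 0.0551 and 0.0598 in CKO, and Il7 counts were 0.00216, 0.00239 and 0.0039 of Cxcl12 counts in WT and 0.00631, 0.0099 and 0.00551 in CKO. The highest WT ratio of Kitl to Cxcl12, in replicate 3, lay directly under the lowest CKO ratio. The ratio of Vcam1 to Eng was 2.27, 2.49 and 1.65 in WT and 2.88, 3.69 and 2.82 in CKO. None of these groups overlapped, each with an exact two-sided permutation p of 0.1, the smallest possible.

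The genes with the profile most like that of Cxcl12 were taken from the 9242 genes with a mean of at least 10 CPM, by the root mean square difference of log2 CPM over the 6 libraries after each gene was centred on its own mean. Dpep1, which encodes a dipeptidase, and Sfrp1, which encodes a secreted inhibitor of Wnt ligands, both had a difference of 0.123, and Fbn2, the gene of the microfibril protein fibrillin-2, had 0.129. Dpep1 was at 194 ± 16.5 CPM (SD, n = 3) in WT and 41.4 ± 3.31 CPM in CKO, Sfrp1 at 668 ± 77.6 and 116 ± 15.3 CPM, and Fbn2 at 29.6 ± 0.252 and 5.61 ± 0.404 CPM. Of the niche genes, Ebf3 was 13th, Lepr 14th and Kitl 22nd in this order, Ebf1 93rd, Eng 107th, Foxc1 122nd and Vcam1 335th. With 2 groups of 3 libraries, genes with a like difference between the genotypes come first in such an order.

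A list of 45 other genes of reticular stroma was set beside the niche genes, of which 42 were tested. This list and all others were chosen with earlier results of these data known, so their counts are description and not independent support. Over all genes tested, 2.50% were called lower and 1.03% higher, the shares to set beside the calls of each list. In the reticular list 17 genes were called lower, or 40.5%, and 1 higher, the midkine gene Mdk (0.582 ± 0.149 CPM in WT and 1.56 ± 0.272 CPM in CKO, SD, n = 3), with a median log2 fold change of -0.612. The call for Mdk was lost without any 1 of 5 libraries and with a replicate block (adjusted p = 0.0587). Without the fold threshold 24 were lower and 2 higher, where 4.51% of all genes were lower and 2.88% higher, and 16 did not pass. The other that was higher is Csf1, the gene of a macrophage growth factor, at 390 ± 22.3 CPM (SD, n = 3) in WT and 614 ± 14.8 CPM in CKO (log2 fold change 0.66, adjusted p = 0.00277). Igfbp5, which encodes a binding protein for insulin-like growth factors, fell from 426 ± 53.1 to 42.4 ± 9.37 CPM (log2 fold change -3.33 ± 0.18 SE, adjusted p = 5.23e-05). The kininogen genes Kng1 and Kng2 had log2 fold changes of -2.34 and -1.94, although reads can be shared between these near-identical copies. Adiponectin, the product of Adipoq and a hormone of both adipocytes and reticular cells, had 1232, 1166 and 1235 counts in WT and 33, 14 and 6 counts in CKO. Chrdl1, which encodes a BMP antagonist, fell from 9.26 ± 1.68 to 0.525 ± 0.11 CPM, Igfbp4 from 1385 ± 213 to 391 ± 24.4 CPM and the angiotensinogen gene Agt from 15.5 ± 2.76 to 2.29 ± 0.351 CPM. These 3 were chosen after their values were seen. The summed level of the list overlapped between the genotypes, at between 39180 and 45330 CPM in WT and between 35400 and 44880 CPM in CKO. Most of that sum came from Apoe, at 17735 ± 805 CPM (SD, n = 3) in WT and 17555 ± 497 CPM in CKO, and Spp1, at 12803 ± 3525 and 17214 ± 4701 CPM, and neither passed the test (adjusted p = 0.946 and 0.375). Which cells of the cultures held the RNA of Apoe and Spp1 was not tested.

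The list of receptors, ligands and enzymes that act with the niche genes had 32 of 40 members tested, of which 2 were called lower and 0 higher, with a median log2 fold change of -0.0607. The receptors for CXCL12 did not pass the test: Cxcr4 was between 84.0 and 105 CPM in WT and between 83.4 and 107 CPM in CKO (log2 fold change 0.05, adjusted p = 0.864), and Ackr3, the scavenging receptor, had a log2 fold change of -0.31 (adjusted p = 0.553). Kit, the receptor for stem cell factor, was called lower, at 2.40, 2.43 and 3.76 CPM in WT and 0.990, 0.348 and 0.866 CPM in CKO (log2 fold change -1.95 ± 0.38 SE, adjusted p = 0.0171), but not without CKO replicate 2 (adjusted p = 0.0502) or CKO replicate 3 (adjusted p = 0.0634).

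Il7r, the IL-7 receptor, was at 4.41, 7.06 and 12.5 CPM in WT and 14.3, 7.57 and 13.2 CPM in CKO, overlapping groups with an adjusted p of 0.457, and without WT replicate 3 it was called higher (log2 fold change 1.02, adjusted p = 0.00682). The integrin subunits that bind VCAM1 did not pass the test, with log2 fold changes of 0.16 for Itga4 (adjusted p = 0.708) and 0.29 for Itgb1 (adjusted p = 0.0731), nor did Acvrl1, a receptor that signals with endoglin (0.14, adjusted p = 0.495). The other call was Alpl, a phosphatase of mineralizing cells that can also act on AMP, at 91.8 ± 5.84 CPM (SD, n = 3) in WT and 42.6 ± 3.44 CPM in CKO (log2 fold change -1.11, adjusted p = 0.000464). Past the adjusted p but not the fold threshold were 3 further genes that were lower and 3 that were higher, among them Tgfbr3, a co-receptor of the same family as Eng (log2 fold change -0.99, adjusted p = 0.00223), the chemokine Cxcl14 (0.73, adjusted p = 0.00694) and Mmp2, a matrix protease that can cut CXCL12 (0.50, adjusted p = 0.00803). The adjusted p of both Cxcl14 and Mmp2 was above 0.05 without CKO replicate 1, and that of Mmp2 also without CKO replicate 3. Tgfbr3 was called lower under total-count scaling and without WT replicate 2 or CKO replicate 1. Dpp4 and Bmp10 had at most 1 count in any library.

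Of 35 other transcription factors of mesenchymal and marrow stromal cells tested, 5 were called lower (14.3%) and 1 higher (2.86%), with a median log2 fold change of -0.214. Epas1, a hypoxia-inducible factor, fell from 368 ± 66.6 to 97.7 ± 2.12 CPM (SD, n = 3; log2 fold change -1.91 ± 0.13 SE, adjusted p = 0.000154). Pparg, the master factor of adipocytes, had a log2 fold change of -1.57 (adjusted p = 0.000557), and Zfp423, a factor of preadipocytes that binds EBF proteins, one of -2.30 (adjusted p = 0.0013). Gli2, a transducer of Hedgehog signals, had one of -2.43 (adjusted p = 0.000558) and Snai2 one of -1.19 (adjusted p = 0.0121), the latter not called without WT replicate 3 or without any 1 of the CKO libraries. The call that was higher, Meox2, rested on 1, 0 and 5 counts in WT and 25, 9 and 22 counts in CKO and was not made without WT replicate 1 or 2 or without CKO replicate 1 or 3.

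Other signals that stroma can send were mixed, with 3 of 35 called lower and 3 called higher and a median log2 fold change of -0.183. Bmp4 fell from 39.2 ± 4.60 to 14.4 ± 2.14 CPM (SD, n = 3; log2 fold change -1.44, adjusted p = 0.000765), Wnt4 from 3.44 ± 0.969 to 0.865 ± 0.226 CPM (-1.97, adjusted p = 0.00605) and Hgf, hepatocyte growth factor, from 34.0 ± 8.28 to 16.1 ± 0.997 CPM (-1.08, adjusted p = 0.00807). Hgf was not called without WT replicate 3 or CKO replicate 1. Ccl2, the chemokine of monocytes, rose from 12.1 ± 1.43 to 56.4 ± 1.64 CPM (log2 fold change 2.22 ± 0.12 SE, adjusted p = 5.23e-05), and 2 cytokines of the IL-6 family also rose, Osm with a log2 fold change of 1.77 (adjusted p = 0.00323) and Lif with 1.02 (adjusted p = 0.0027), the latter not called without WT replicate 2 or CKO replicate 2. The chemokine genes Cxcl12 and Ccl2 thus went opposite ways in the same libraries.

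**Figure D4:**
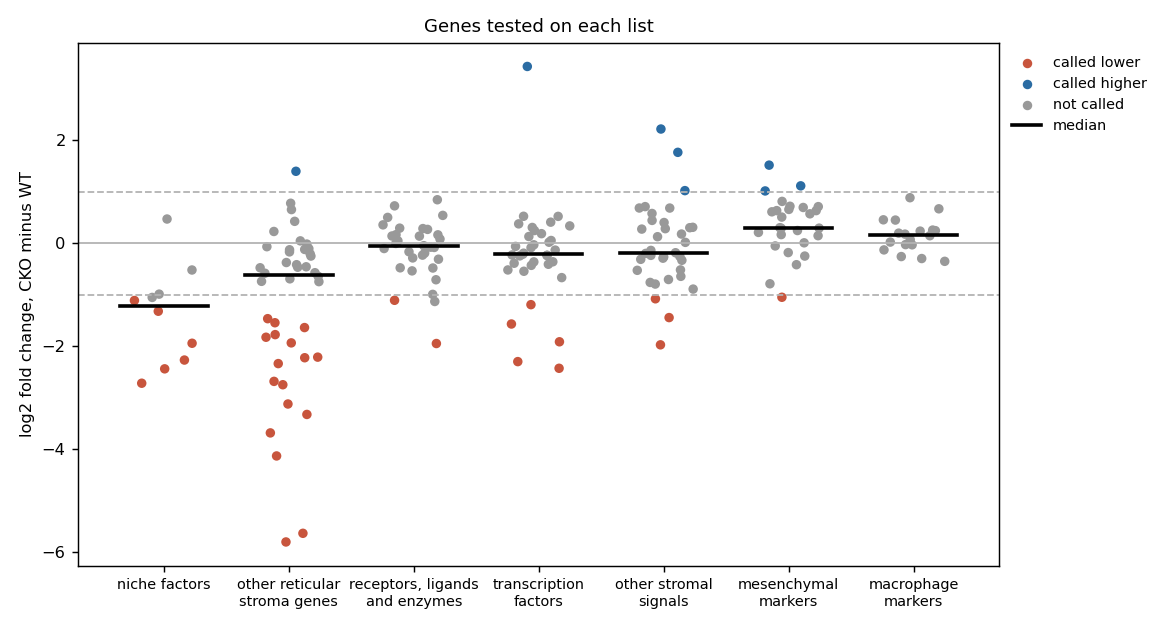
log2 fold change of CKO minus WT (vertical axis) for every gene tested on 7 lists, as points that are red when called lower, blue when called higher and grey otherwise, with black bars for the medians and dashed lines at -1 and 1. The medians are -1.22 for the niche genes, -0.612 for other reticular genes, -0.0607 for their receptors, ligands and enzymes and 0.163 for macrophage markers; horizontal position within a list has no meaning.

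The markers of mesenchymal cells at large were not lower as a list. Of 27 such markers, 1 was called lower and 3 higher, with a median log2 fold change of 0.303. Without the fold threshold 2 were lower and 10 higher, where 4.51% of all genes were lower and 2.88% higher, and 15 did not pass. Their sum was between 21710 and 23100 CPM in WT and between 29210 and 30740 CPM in CKO. Most of that sum came from the matrix genes Fn1, Col1a1, Col1a2 and Col3a1. Pdgfra and Pdgfrb were lower in every CKO library, Pdgfrb without passing the test. Thy1, which encodes CD90, rose from 3.20 ± 1.31 to 9.22 ± 0.991 CPM (SD, n = 3; log2 fold change 1.52, adjusted p = 0.0113), and Ly6a, which encodes SCA-1, from 138 ± 48.2 to 299 ± 25.7 CPM (1.12, adjusted p = 0.0254). The proteoglycan gene Lum had a log2 fold change of 1.02 (adjusted p = 0.00375), and the integrin gene Itgav, which passed the adjusted p alone, one of 0.70 (adjusted p = 0.00583). Mcam, which encodes CD146, a marker of perivascular stroma, had one of -1.05 (adjusted p = 0.012). Each of these 4 calls was lost when 1 library was left out: Thy1 without CKO replicate 1 or 2, Lum without WT replicate 1 or CKO replicate 3 and also under total-count scaling, and Ly6a and Mcam each without any of 5 libraries.

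Genes of the cell types that reticular stroma can give rise to were lower in part, where 2.50% of all genes tested were called lower and 1.03% higher. In the adipocyte list 6 of 12 tested genes were called lower and 0 higher: besides Adipoq and Pparg these were Plin4, at 30.9 ± 4.10 CPM (SD, n = 3) in WT and 8.25 ± 0.961 CPM in CKO, Plin1, with 69, 59 and 115 counts against 0 in all CKO libraries, Cfd, with 35, 53 and 33 counts against 0, and Cidec, with 33, 32 and 52 counts against 0, 1 and 0. More abundant genes of the list did not pass the test: Fabp4 had a log2 fold change of 0.46 (adjusted p = 0.0545) and was above WT in every CKO library. Lpl had one of 0.23 (adjusted p = 0.486), and Cd36 was at 482 ± 72.4 CPM (SD, n = 3) in WT and 482 ± 27.2 CPM in CKO. The list summed to between 1263 and 1357 CPM in WT and between 1142 and 1393 CPM in CKO, most of it from Lpl and Cd36. The cultures also held macrophage RNA, and which cells held the RNA of Fabp4, Lpl and Cd36 was not tested. In the osteoblast list 4 of 13 were called lower and 0 higher, namely Sp7, the osteoblast transcription factor (log2 fold change -1.88, adjusted p = 0.000432), Alpl, Ibsp, the gene of bone sialoprotein (-1.25, adjusted p = 0.000585), and Pth1r, the parathyroid hormone receptor (-1.21, adjusted p = 0.0061). Col1a1, the gene of the main collagen of bone, went the other way and passed the adjusted p alone, at 4039 ± 511 CPM (SD, n = 3) in WT and 6173 ± 299 CPM in CKO (log2 fold change 0.61, adjusted p = 0.0154). It did not pass without WT replicate 2, CKO replicate 1 or CKO replicate 3. The 17 genes of that list summed to between 14640 and 20790 CPM in WT and between 17930 and 26690 CPM in CKO, so the sums overlapped. Most of each sum came from Spp1, and which cells held its RNA was not tested.

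Of 13 smooth muscle and pericyte markers, 3 were called lower (23.1%), Mylk with a log2 fold change of -1.32 (adjusted p = 0.000391), Abcc9 with -3.29 (adjusted p = 0.000451) and the pericyte gene Rgs5 with -1.99 (adjusted p = 0.000721). Actg2 was at the edge of the adjusted p (-0.46, adjusted p = 0.0505). Of 7 chondrocyte markers, 2 were called lower, Comp (-1.10, adjusted p = 0.00516), not without WT replicate 1 or CKO replicate 3, and Col10a1 (-1.61, adjusted p = 0.0052). The median of that list was 0.0304, and Col2a1 (log2 fold change 0.69, adjusted p = 0.111) and Sox6 (1.1, adjusted p = 0.146) were above WT in every CKO library without passing the test. Of 18 macrophage markers 0 were called by edgeR, DESeq2 or limma-voom, 1 was lower and 4 higher at an unadjusted p under 0.05 in edgeR, and 1 passed the adjusted p alone, the Fc receptor gene Fcgr1, at 37.0 ± 5.32 CPM (SD, n = 3) in WT and 68.4 ± 7.90 CPM in CKO (log2 fold change 0.89, adjusted p = 0.00605), and without WT replicate 1 it was called higher. Itgam (log2 fold change 0.45, adjusted p = 0.0645), Cd14 (0.67, adjusted p = 0.0718) and Ctss (0.46, adjusted p = 0.0778) were above WT in every CKO library without passing the test. Neutrophil markers were low, with a list sum between 14.1 and 16.6 CPM in WT and between 13.9 and 17.6 CPM in CKO. Most of that sum came from Csf3r, and 5 of the 11 genes in the table had at most 3 counts in each library. Among the 5 tested, Lcn2 was called lower (41, 24 and 36 counts against 0, 0 and 2) and S100a8 higher (14, 8 and 14 counts against 31, 27 and 23). Prtn3 (log2 fold change -1.56, adjusted p = 0.336) and Camp (-0.59, adjusted p = 0.608) did not pass, but without WT replicate 3 Prtn3 was called lower (-2.02, adjusted p = 0.0357). The call for S100a8 was lost under the fit with a replicate block (adjusted p = 0.0838) and without any 1 of 5 libraries.

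**Figure D5:**
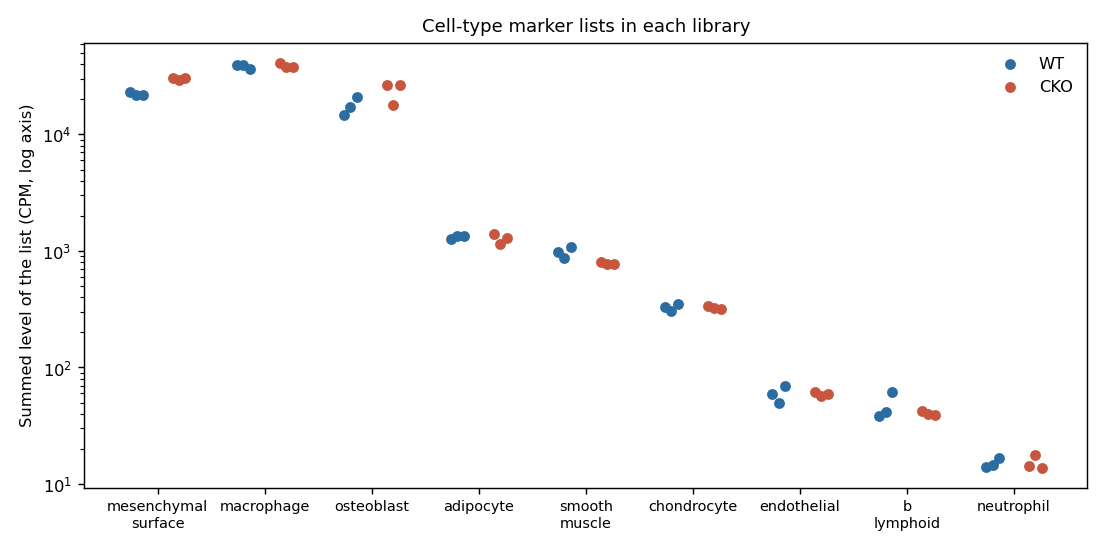
Summed level of each list of cell-type markers (CPM, log axis) in the WT libraries (blue) and the CKO libraries (red), 1 point per library. Macrophage markers sum to 36410 to 41080 CPM in all 6 libraries, endothelial, B lymphoid and neutrophil markers to 13.9 to 69.2 CPM, and the mesenchymal sum is higher in every CKO library.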

How the data were processed

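Poly(A) RNA in 6 libraries was sequenced by the authors as paired reads and mapped to mm10 with HISAT2. The deposited values are raw counts of reads per gene. How reads were assigned to genes, with which annotation and whether by strand, is not given in the sources used here. Of 20163 rows, 92 that repeated an Ensembl ID with the same counts were dropped. Groups came from the sample titles. The fit used edgeR 4.0.16 in R 4.3.3 (two-sided glmQLFTest after filterByExpr, TMM scaling and glmQLFit, with no covariate), with Benjamini-Hochberg adjustment over the 13733 genes tested. A call needs a log2 fold change of 1 or more in either direction with an adjusted p under 0.05. Standard errors are the log2 fold change over the square root of F. A group with at most 3 counts in every library was taken as at the floor. Errors cover counting and the spread between libraries, and PCR copies could not be told from molecules. Positions and lengths are from GENCODE M21 on GRCm38 and start sites from RefSeq on GRCm38.p6. Chi-square comparisons gave 2.83 to 98.6 per gene between libraries of a group, so none repeats another.

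The niche genes and the 13 lists, of the genes that act with them, of other stromal genes and of cell types, were chosen with earlier results of these data known. Named were all niche genes, up to 4 genes of each list with the smallest p, every called gene of lists with at most 6 calls, the 3 genes nearest to Cxcl12, paralogs and direct receptors. Csf1, Apoe, Spp1, Col1a1, Fabp4, Lpl, Cd36, Lyz2, Mdk, Pdgfra, Pdgfrb, Prrx1 and Ptprc, and Chrdl1, Igfbp4 and Agt, fall outside this rule and were chosen after their values were seen. The same holds for Ddx3y, Fn1, Col1a2, Col3a1 and Csf3r, and for Pax5, Spib, Igll1, Ms4a1, Dpp4 and Bmp10, named for their low counts. The fits were tested on simulated counts. Alternatives were DESeq2 1.42.0, RLE and total-count scaling, limma-voom (limma 3.58.1), no filter, a minimum mean of 10 counts, a replicate block, no fold threshold and leaving out each library.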

Additional observations from a re-analysis of the deposited data

How the results depend on the processing

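Cxcl12, Kitl, Lepr and Ebf3 kept their call under all 13 alternative fits, with log2 fold changes of -2.49 to -2.36, -2.01 to -1.80, -2.83 to -2.51 and -2.39 to -2.06. Of the 10 niche genes, 4 were called lower without WT replicate 3, 5 without CKO replicate 1 or 2, 7 with DESeq2, total-count scaling, no expression filter or without WT replicate 2, and 6 in the other fits. No niche gene changed direction. Of the other genes taken through the alternatives, 6 changed sign, none of them called in any fit. Leaving out 1 library gave log2 fold changes of -0.0496 to 0.0157 for Apoe, -0.41 to 0.041 for Blnk, -0.11 to 0.093 for Cd36, -0.032 to 0.16 for Cxcr4, -0.013 to 0.46 for Itga4 and -0.0921 to 0.033 for Lyz2, and Cd36 was at -0.022 with total counts and -0.0046 with no expression filter. Without the fold threshold 620 genes were lower and 396 higher over the whole table, against 343 and 142 with it. Leaving out 1 library gave 253 to 385 lower and 89 to 229 higher genes, with 229 without WT replicate 3 and 91, 90 and 89 without CKO replicates 1, 2 and 3, and the cause was not tested. Deviations of same-numbered libraries correlated at 0.0527, -0.0426 and -0.0155, so no shared deviation was seen. With 3 libraries per genotype this cannot show whether the numbers pair the samples. A replicate block gave 326 lower and 126 higher genes and the same number of niche gene calls, 6. Depth is low for Il7, with 57 to 318 counts per library, and for Nt5e, with 152 to 219.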
